A study of Mus musculus with 12 samples.

Results

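The microtubule-associated protein tau is encoded by *Mapt*, and 9 genes of its kinase machinery were followed beside it: the glycogen synthase kinases *Gsk3a* and *Gsk3b*, the cyclin-dependent kinase *Cdk5* with its activator *Cdk5r1*, the microtubule affinity-regulating kinases *Mark1*, *Mark2*, *Mark3* and *Mark4*, and *Dyrk1a*. These 10 genes were taken by name from the 17744 genes that had an m6A peak in either genotype. They held 19 of the 33622 peaks of the WT list and 21 of the 34935 peaks of the *Tyrobp*-/- list. Each list came from hippocampal RNA of male C57BL/6 mice at 6 months of age. The *Tyrobp*-/- mice carried a small germline deletion in *Tyrobp*, made with a TALEN nuclease, in every cell of the body, and their WT littermates were the controls. Each genotype gave 3 samples, each sample pooled the hippocampi of 3 mice, and each sample gave 1 library immunoprecipitated with an m6A antibody (IP) and 1 input library. *Tyrobp* itself had 0 peaks in either list, so the knockout could not be checked from the peaks.

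Tau binds and stabilizes axonal microtubules, and it leaves them when it is phosphorylated. GSK-3 and CDK5 phosphorylate serines and threonines that precede a proline, the MARK kinases act on serines within the microtubule-binding repeats, and DYRK1A can prime tau for GSK-3. Hyperphosphorylated tau is the material of neurofibrillary tangles in Alzheimer's disease. m6A is a methyl mark that the METTL3-METTL14 complex places on adenosines of mRNA, mostly near stop codons and in 3′ UTRs, where reader proteins bind it and affect the decay and translation of the transcript.

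The libraries held between 61189368 and 73554506 reads after filtering. The share of G and C bases in the IP libraries was between 49.16% and 50.24% in WT mice and between 48.46% and 49.33% in *Tyrobp*-/- mice. Its part in the values below was not tested. Peaks had been called by the authors with exomePeak after joining the 3 replicates of each genotype. A peak therefore had 1 fold enrichment (IP over input) for each genotype, without a replicate error, and no test between genotypes could be made. The reads behind a single peak are unknown.

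Start-site sequences are shown for the members that had a peak in the 5′ UTR, because the strongest enrichments of the whole group lay there. Of the 4 members with such a peak, 3 had a start window in the RefSeq table (GRCm38.p6), and *Mapt* was not matched. The letters run 5′ to 3′ on the transcribed strand, and capitals mark GGACT. The search, on the transcribed strand only, was for GGAC followed by A, C or T, 3 forms of the motif that the m6A methyltransferase favors.
Gsk3b, chr16:38089001-38089030, + strand: acacgcccagcggagttgtccagccaatga
Mark2, chr19:7341831-7341860, - strand: gtaggcgtggctgctggttggctctggagg
Gsk3a, chr7:25237807-25237836, - strand: ccgacggcagagGGACTtcatctcccggcg
The *Gsk3b* and *Mark2* stretches are the first 30 transcribed bases, and the peaks of both genotypes covered them. The first 50 transcribed bases of these transcripts held 0 of the searched forms. The *Gsk3a* stretch covers bases 16 to 45 of the transcript, and the *Gsk3a* peak of *Tyrobp*-/- mice began 149 bp inside the start, past this stretch. Of all 32851 start windows in the table, 15.4% held one of the forms in their first 50 transcribed bases. A match or its absence describes the letters of this window only.

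The peaks of tau and its kinases lay mostly at the 3′ end of the transcripts. The authors' annotation placed 16 of the 19 WT peaks and 17 of the 21 *Tyrobp*-/- peaks in 3′ UTRs, against 47.2% and 49.3% of all peaks of the lists. The 5′ UTR held 2 WT and 4 *Tyrobp*-/- peaks, and 1 WT peak of *Gsk3b* lay in another exon. Every member with a peak in a list had at least 1 peak in its 3′ UTR there. The median exonic width of the members' peaks was 420 bp in each list, against 326 bp for all WT and 301 bp for all *Tyrobp*-/- peaks.

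**Figure D1:**
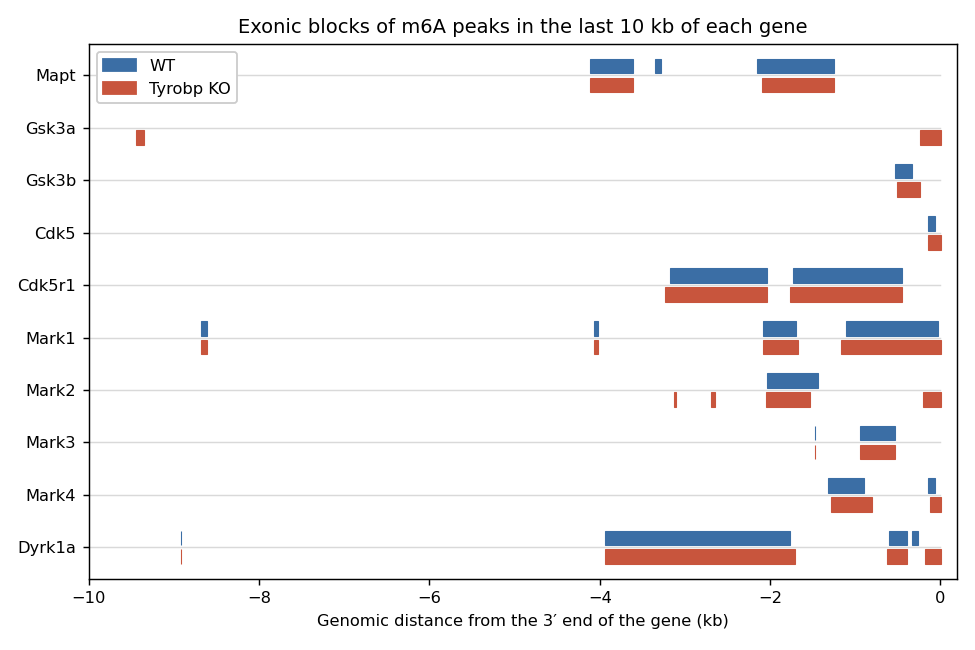
Position of the exonic blocks of m6A peaks within the last 10 kb of each gene, with distance from the 3′ end of the gene in kb on the x axis, WT peaks above and *Tyrobp*-/- peaks below the line of each gene. Blocks farther upstream, such as the 5′ UTR peaks of *Gsk3b*, *Mapt* and *Mark2*, fall outside this range. Within it most WT blocks face a *Tyrobp*-/- block, while *Gsk3a* has blocks in *Tyrobp*-/- mice only, the leftmost of them in its 5′ UTR.

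*Mapt* (ENSMUSG00000018411) lies on the forward strand of chromosome 11, and its strongest peak sat in the 3′ UTR and ended 1255 bp before the transcript end. This peak ran from 104329939 to 104330835 in WT mice and from 104329998 to 104330835 in *Tyrobp*-/- mice (GRCm38). Its fold enrichment was 5.29 in WT and 6.06 in *Tyrobp*-/- mice, a log2 ratio of 0.20. These values were near the middle of all peaks, at the 48.1 percentile of the WT list and the 52.6 percentile of the *Tyrobp*-/- list.

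A second *Mapt* peak, annotated to the 3′ UTR, ran from 104322535 to 104328474 in 2 exonic blocks and had the same ends in both genotypes. Its fold enrichment was 2.09 in WT and 2.32 in *Tyrobp*-/- mice, a log2 ratio of 0.15. It was a weak peak by enrichment, at the 11.1 percentile of the WT list. Each genotype had 1 further *Mapt* peak without a partner. In WT mice this was a stretch of 61 bp in the 3′ UTR with a fold enrichment of 1.21, close to the lowest value in the WT list of 1.09. In *Tyrobp*-/- mice it was a stretch of 90 bp in the 5′ UTR, from 104231450 to 104231539, with a fold enrichment of 2.52.

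*Gsk3a* and *Gsk3b* encode the alpha and beta forms of GSK-3, the main proline-directed tau kinase. *Gsk3b* (ENSMUSG00000022812) had the strongest peak of any member in WT mice. This peak began at the first base of its annotated transcript on chromosome 16, ran from 38089001 to 38089930 in WT and to 38089840 in *Tyrobp*-/- mice, and included the start sequence printed above. Its fold enrichment was 23.2 in WT and 23.0 in *Tyrobp*-/- mice, a log2 ratio of -0.01, and only 2.11% of all matched peaks had a smaller difference between genotypes. It stood at the 97.2 percentile of the WT list and the 97.3 percentile of the *Tyrobp*-/- list. The noncoding gene *BC031361* overlaps the start of this peak on the other strand in RefSeq, and the sources used here do not state whether reads were counted by strand.

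The *Gsk3b* peak in the 3′ UTR had a fold enrichment of 2.46 in WT and 3.09 in *Tyrobp*-/- mice, a log2 ratio of 0.33. A further *Gsk3b* peak, of 151 bp and annotated to another exon, was listed in WT mice only, with a fold enrichment of 4.39 and a peak-calling FDR of 0.139. This FDR is weak support for a peak, since the authors' lists were limited by the unadjusted p-value and not by the FDR.

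*Gsk3a* (ENSMUSG00000057177) was the only member with peaks in 1 genotype alone. The WT list held 0 peaks of this gene and the *Tyrobp*-/- list held 2. Of all 17744 genes with a peak, 11.1% had peaks in the *Tyrobp*-/- list only. The 5′ UTR peak of *Gsk3a* in *Tyrobp*-/- mice, of 91 bp on chromosome 7 from 25237612 to 25237702, had a fold enrichment of 35.3. That was the highest value of any member and the 99.2 percentile of the list. The 3′ UTR peak, of 240 bp from 25228258 to 25228497, ended at the last base of its annotated transcript and had a fold enrichment of 2.02, at the 8.81 percentile. A gene missing from a list gives no enrichment value, so a fold between genotypes was not computed for *Gsk3a*. In RNA from whole tissue, fewer cells of a type and less RNA per cell cannot be told apart. The values used here are peaks, and the amounts of *Gsk3a* RNA and of hippocampal marker RNAs in the input libraries were not analysed here.

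*Cdk5* (ENSMUSG00000028969), the kinase, had the lowest value of any member when each was ranked by its strongest peak, and *Cdk5r1* (ENSMUSG00000048895), which encodes the p35 activator that CDK5 needs for its activity, had broad and strong peaks. The single *Cdk5* peak lay in the 3′ UTR at the end of the transcript on chromosome 5, with 90 bp in WT and 149 bp in *Tyrobp*-/- mice. Its fold enrichment was 1.82 in WT and 2.46 in *Tyrobp*-/- mice, a log2 ratio of 0.43. It stood at the 6.55 percentile of the WT list and the 15.4 percentile of the *Tyrobp*-/- list.

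The peaks of *Cdk5r1* on chromosome 11, 2 in each genotype, covered 2426 bp in WT and 2516 bp in *Tyrobp*-/- mice. The upstream peak had a fold enrichment of 7.15 in WT and 9.33 in *Tyrobp*-/- mice, a log2 ratio of 0.38. The downstream peak had a fold enrichment of 9.10 in WT and 8.09 in *Tyrobp*-/- mice, a log2 ratio of -0.17. The peaks of this 1 transcript thus differed in opposite directions between the genotypes, and without replicates neither difference can be set against an error.

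The MARK kinases phosphorylate tau in its repeats and detach it from microtubules. *Mark1* (ENSMUSG00000026620) had the largest difference between genotypes of any matched peak in the group. This peak covered the last part of its 3′ UTR on chromosome 1, from 184896819 to 184897893 in WT and from 184896789 to 184897952 in *Tyrobp*-/- mice. Its fold enrichment was 4.76 in WT and 7.18 in *Tyrobp*-/- mice, a log2 ratio of 0.59. Among all matched peaks it stood at the 71.4 percentile by size of the difference and at the 84.4 percentile by the signed ratio. The other *Mark1* peak, with 3 exonic blocks, had a fold enrichment of 6.13 in WT and 7.80 in *Tyrobp*-/- mice, a log2 ratio of 0.35. Both *Mark1* peaks were thus higher in *Tyrobp*-/- mice.

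*Mark2* (ENSMUSG00000024969) had 2 peaks in WT and 3 in *Tyrobp*-/- mice. Its main 3′ UTR peak had a fold enrichment of 6.63 in WT and 7.91 in *Tyrobp*-/- mice, a log2 ratio of 0.25. This peak had 1 exonic block in WT and 3 in *Tyrobp*-/- mice, with 511 bp shared of 601 exonic bp in each. The values thus cover partly different sequence. The 5′ UTR peak over the start sequence printed above had a fold enrichment of 3.42 in WT and 3.49 in *Tyrobp*-/- mice, a log2 ratio of 0.03. The remaining peak was listed in *Tyrobp*-/- mice only. It covered the last 211 bp of its annotated transcript on chromosome 19, from 7275396 to 7275606, with a fold enrichment of 2.46.

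*Mark3* (ENSMUSG00000007411) had 1 peak with the same ends in both genotypes, on chromosome 12 from 111654741 to 111655682, with a fold enrichment of 2.16 in WT and 2.49 in *Tyrobp*-/- mice, a log2 ratio of 0.21. *Mark4* (ENSMUSG00000030397) had 2 peaks in each genotype, and both were lower in *Tyrobp*-/- mice. The larger one had a fold enrichment of 3.67 in WT and 3.22 in *Tyrobp*-/- mice, a log2 ratio of -0.19. The smaller one, of 91 bp in WT and 121 bp in *Tyrobp*-/- mice, had a fold enrichment of 4.23 in WT and 3.81 in *Tyrobp*-/- mice, a log2 ratio of -0.15. It was weakly supported, with a peak-calling FDR of 0.0501 in WT and 0.134 in *Tyrobp*-/- mice, and it lay beyond the end of *Mark4* in RefSeq at 19425102.

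*Dyrk1a* (ENSMUSG00000022897), on chromosome 16, encodes a kinase whose human gene lies in the region linked to Down syndrome. Its main peak had 2 exonic blocks, with 2183 exonic bp in WT and 2243 exonic bp in *Tyrobp*-/- mice, and was the widest peak of the group. The fold enrichment was 12.2 in WT and 11.4 in *Tyrobp*-/- mice, a log2 ratio of -0.10. A second peak near the end of the transcript had a fold enrichment of 4.76 in WT and 4.54 in *Tyrobp*-/- mice, a log2 ratio of -0.07. Past it, each genotype had 1 short peak that the other lacked. The WT one had 61 bp and a fold enrichment of 7.81 with a peak-calling FDR of 0.0525, and the *Tyrobp*-/- one had 180 bp and a fold enrichment of 6.67 with a peak-calling FDR of 0.00741. They were separated from the nearest peak of the other list by 59 bp and 89 bp.

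**Figure D2:**
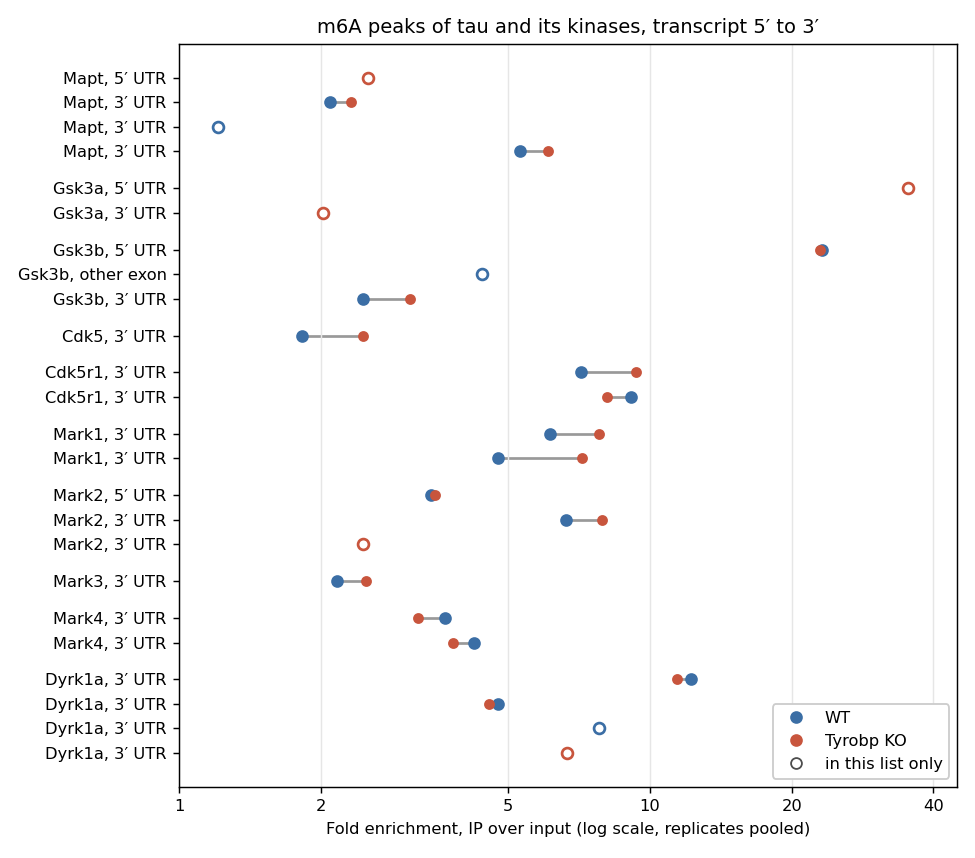
Fold enrichment of IP over input (x axis, log scale) for every m6A peak of the 10 genes, listed from the 5′ to the 3′ end of each transcript, with WT and *Tyrobp*-/- values joined where the peaks matched and open circles for peaks in 1 list only. The largest joined distance is the last *Mark1* peak, from 4.76 to 7.18, and the 5′ UTR peaks of *Gsk3a* (35.3) and *Gsk3b* (23.2 and 23.0) are the highest.

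Ranked by the strongest peak of each gene, the 9 genes with peaks in both genotypes stood in the same order in both lists. The order was *Gsk3b*, *Dyrk1a*, *Cdk5r1*, *Mark2*, *Mark1*, *Mapt*, *Mark4*, *Mark3* and *Cdk5*, from 23.2 to 1.82 in WT and from 23.0 to 2.46 in *Tyrobp*-/- mice. *Gsk3a* stood above them all in *Tyrobp*-/- mice. Neighbors in this order cannot be separated, because no value has an error. The strongest peaks of *Mark2* and *Mark1*, for example, were at 6.63 and 6.13 in WT and at 7.91 and 7.80 in *Tyrobp*-/- mice.

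To compare the genotypes, peaks of the same gene were matched when their exonic blocks shared at least 1 bp and each was the other's largest overlap. Of the members' peaks, 16 matched, in 9 genes. The peaks without a partner were 3 of 19 in WT and 5 of 21 in *Tyrobp*-/- mice. Among all peaks, 29.8% of the WT list and 32.5% of the *Tyrobp*-/- list had no partner. All unpaired peaks of the lists together were shorter than the paired ones, with a median exonic width of 180 bp against 419 bp in WT and of 178 bp against 420 bp in *Tyrobp*-/- mice.

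Of the 16 matched peaks of tau and its kinases, 10 had a higher and 6 a lower fold enrichment in *Tyrobp*-/- mice. Of all 23587 matched peaks, 53.6% were higher in *Tyrobp*-/- mice. The median log2 ratio was 0.17 for the members and 0.05 for all matched peaks. Most of the members' pairs, 14 of 16, lay in the 3′ UTR. Among matched 3′ UTR peaks, 9 of these 14 and 57.7% of all 12627 were higher in *Tyrobp*-/- mice. The median log2 ratios there were 0.20 and 0.08. By gene, all matched peaks were higher in *Tyrobp*-/- mice for *Mapt*, *Cdk5*, *Mark1*, *Mark2* and *Mark3*, all were lower for *Mark4* and *Dyrk1a*, and the peaks of *Gsk3b* and *Cdk5r1* were divided. A fold enrichment compares IP with input within a genotype, so these ratios do not measure the total amount of m6A. The paper reports a lower global m6A level in hippocampal RNA of *Tyrobp*-/- mice, measured by other methods.

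No matched peak of the group reached a fold of 2 between the genotypes, in either direction. This fold was reached by 13.0% of all matched peaks, with 6.91% higher and 6.05% lower in *Tyrobp*-/- mice. Among the 12627 matched peaks of the 3′ UTR, the region of 14 member pairs, 1121 reached it. The log2 ratios of the members ran from -0.19 to 0.59, and the quartiles of all matched peaks ran from -0.28 to 0.39. With a fold of 1.5, the last *Mark1* peak was the single member to pass, at a ratio of 1.51. This lower fold was reached by 29.2% of all matched peaks and by 2917 of the 12627 matched 3′ UTR peaks. The lists hold no replicate values, so these folds describe pooled libraries and not the variation between mice.

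**Figure D3:**
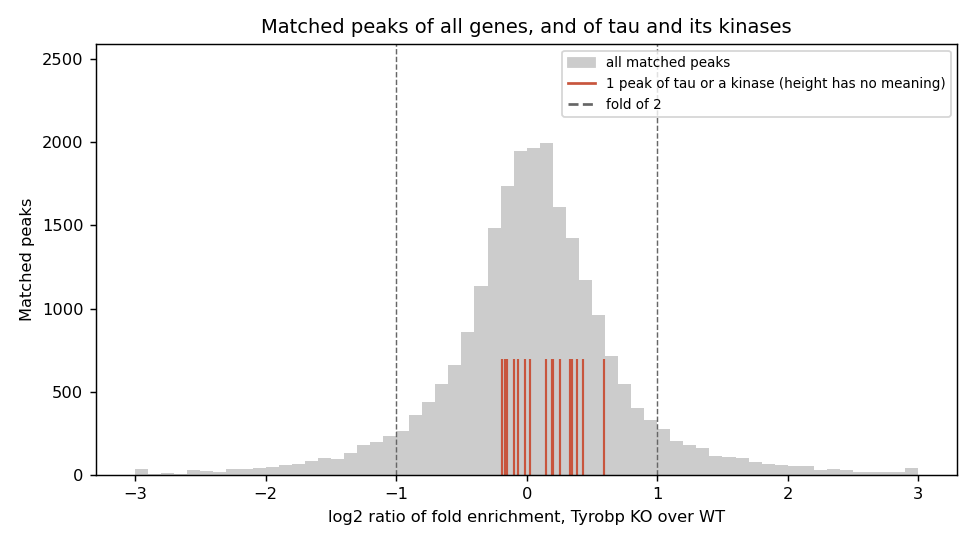
Histogram of the log2 ratio of fold enrichment, *Tyrobp*-/- over WT, for all 23587 matched peaks (gray, number of peaks on the y axis, the 50 values beyond 3 in either direction placed in the end bins), with a red line for each of the 16 matched peaks of tau and its kinases. All red lines lie between -0.19 and 0.59, inside the dashed lines at a fold of 2.

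The authors also deposited a table of 5640 peaks compared between the genotypes, of which only the positions were used here. It listed 1 peak each of *Gsk3a* and *Mark2*, 2 of the 10 genes, and 26.1% of all genes with a peak had a row in it. Both rows had exactly the coordinates of a 3′ UTR peak of the *Tyrobp*-/- list described above, and neither overlapped a WT peak. Of all rows of the table, 23.4% overlapped a peak of the *Tyrobp*-/- list only and 61.8% overlapped peaks of both lists. *Mapt* and the other 7 members had 0 rows. The paper counts fewer peaks than these rows as significantly different. A row or its absence therefore does not tell whether a peak differed between the genotypes.

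Beyond the 10 genes, 3 lists of the tau pathway were described in the same way. Of 22 genes listed as other tau kinases, which include the activator gene *Cdk5r2*, 15 had peaks in both genotypes. *Mapk9* and *Rock1* had peaks in WT mice only, *Prkacb* and *Ttbk2* had peaks in *Tyrobp*-/- mice only, and *Cdk5r2*, *Mapk8* and *Prkaca* had none. For comparison, 14183 of all 17744 genes with a peak had peaks in both lists, and 11.1% had peaks in the *Tyrobp*-/- list only. The WT list held peaks of 15781 genes, which include these 14183. The 22 genes include 3 without a peak, and the 17744 include none, so the shares are not on the same base. *Cdk5r2* encodes p39, the other activator of CDK5, and in contrast to *Cdk5r1* it had no listed peak. Of 25 matched peaks of this list, 14 were higher and 11 were lower in *Tyrobp*-/- mice, with a median log2 ratio of 0.12. A fold of 2 was reached by 0 of them, against 13.0% of all matched peaks. *Mapk3*, which encodes the kinase ERK1, had the strongest WT peak of the 3 lists, in the 5′ UTR, with a fold enrichment of 112 in WT and 67.2 in *Tyrobp*-/- mice. *Brsk1*, a kinase of neuronal polarity, had a 5′ UTR peak at 36.1 in WT and 67.7 in *Tyrobp*-/- mice.

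Phosphatases remove phosphate from tau, chiefly PP2A. Of 12 phosphatase genes and regulators, *Ppp2cb*, *Ppp2r1a* and *Ptpa* had no peak. The other 9 had peaks in both genotypes, as did 14183 of all 17744 genes with a peak. Of the 15 matched peaks of this list, 10 were higher and 5 were lower in *Tyrobp*-/- mice, with a median log2 ratio of 0.12. A 5′ UTR peak of *Ppp1ca*, the alpha catalytic subunit of PP1, differed by more than a fold of 2, with 49.8 in WT and 23.8 in *Tyrobp*-/- mice, a log2 ratio of -1.07. It was the single matched peak of this list that did, against 13.0% of all matched peaks. Another *Ppp1ca* 5′ UTR peak, with an overlapping span, differed in the other direction, with 2.68 in WT and 3.20 in *Tyrobp*-/- mice, a log2 ratio of 0.26.

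All 7 genes of other microtubule proteins had peaks in both genotypes, as did 14183 of all 17744 genes with a peak. Of the 26 matched peaks of this list, 13 were higher and 13 were lower in *Tyrobp*-/- mice, with a median log2 ratio of -0.02. A fold of 2 was passed by 2 of them, both lower in *Tyrobp*-/- mice, against 13.0% of all matched peaks in either direction. One was a peak in the first exon of *Map6*, which encodes a protein that stabilizes microtubules, with a fold enrichment of 14.0 in WT and 3.81 in *Tyrobp*-/- mice, a log2 ratio of -1.88. The other was a 5′ UTR peak of *Map1a*, a neuronal microtubule-associated protein, with a fold enrichment of 4.88 in WT and 1.86 in *Tyrobp*-/- mice, a log2 ratio of -1.39. In both cases the peak was shorter in *Tyrobp*-/- mice, with 240 bp against 450 bp for *Map6* and 61 bp against 121 bp for *Map1a*. The *Map1a* peak ran from 121291016 to 121295516 in WT mice and only from 121295456 to 121295516 in *Tyrobp*-/- mice. Its values in the genotypes therefore describe partly different exonic bases. No other matched peak of *Map6* or *Map1a* passed this fold. Their widest 5′ UTR peaks stood at 13.4 in WT and 11.8 in *Tyrobp*-/- mice for *Map6*, and at 6.33 and 6.06 for *Map1a*. Another first-exon peak of *Map6* was higher in *Tyrobp*-/- mice, at 7.15 against 4.88 in WT.

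**Figure D4:**
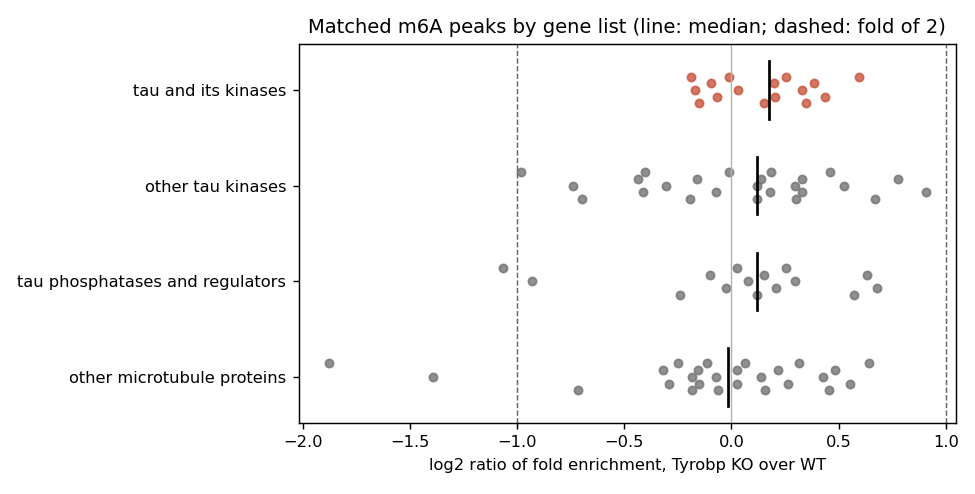
Log2 ratio of fold enrichment, *Tyrobp*-/- over WT (x axis), for each matched m6A peak of tau and its kinases and of 3 other gene lists of the tau pathway (rows), with a black line at the median of each list. The 16 peaks in the top row stay within -0.19 and 0.59, and the 3 points beyond a fold of 2 belong to *Ppp1ca*, *Map6* and *Map1a*.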

How the data were processed

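Hippocampal RNA was studied by MeRIP-seq in 12 libraries, 3 IP and 3 input libraries of each genotype. The authors filtered reads with fastp, mapped them with HISAT2 (Ensembl v96, GRCm38), called peaks with exomePeak on pooled replicates and annotated them with ChIPseeker; tool versions are not given in the sources used here. Read counts before and after filtering were deposited for each library, with the percent of bases reaching Q30 and of G or C. Each listed peak carried a deposited fold enrichment, the ratio of IP over input, and a deposited p-value of at most 0.05 with its FDR. The table comparing genotypes also holds the authors' fold changes, p-values and FDR, which were not used.

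Exonic blocks were used for matching, since a peak's span can include introns, and the log2 of the *Tyrobp*-/- over the WT fold enrichment was computed for each pair. Matching was tested on simulated data in which both lists had the same peak coordinates, so peaks with shifted ends were not tested. Starts, ends and neighbors were compared with RefSeq genes of GRCm38.p6, and 6 of 10 members had a start window. The members, gene lists and comparisons were chosen with earlier results of these data known. All members and all their peaks are reported, and genes of the other lists were named for the 3 strongest WT peaks, for a fold of at least 2, or for lacking peaks in a genotype, the last chosen after the values were seen. Alternatives were a peak-calling FDR below 1e-5, a minimum fold enrichment of 4, matching by genomic spans or by a reciprocal overlap of 50%, centering on all matched peaks, 1 value per gene, and a fold of 1.5. Python 3.11.15, numpy 2.4.6, pandas 2.3.3 and matplotlib 3.10.9 were used.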

Additional observations from a re-analysis of the deposited data

How the results depend on the processing

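With a minimum fold enrichment of 4, the members kept 12 WT peaks, 11 *Tyrobp*-/- peaks and 9 matched pairs, so the larger number of *Tyrobp*-/- peaks turned into a smaller one. With a fold of 1.5 in place of 2, 1 matched peak passed. Under the other alternatives the counts stayed within 1.5 times the values given. A peak-calling FDR below 1e-5 left 14 WT peaks, 18 *Tyrobp*-/- peaks and 13 pairs. The count of 0 matched peaks at a fold of 2 held under every alternative that kept this fold. It could hardly change, because these alternatives used the same pairs or fewer, and centering moved each ratio by only 0.05. Over all matched peaks, the share reaching this fold was 7.92% at a peak-calling FDR below 1e-5. It was 9.56% with a reciprocal overlap of 50% and 12.6% with a minimum fold enrichment of 4. The median log2 ratio of the members stayed between 0.13 and 0.20. Centering on the median of all matched peaks, 0.05, moved 1 of the 16 ratios across 0, the 5′ UTR peak of *Mark2*, from 0.03 to -0.02, which left 9 higher in *Tyrobp*-/- mice. Matching by genomic spans gave the same 16 pairs. No paired analysis was possible because the peak lists pool the replicates of a genotype and hold no value for a single sample, and for the same reason no replicate could be left out. The depth at a single peak is unknown.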

Other observations

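Of the WT peaks, 11.8% shared exonic bases with another peak of the same gene in the same list, and of the *Tyrobp*-/- peaks 11.3%. The fold enrichments of such overlapping peaks differed by at least 2-fold in 16.4% of 2495 WT pairs and 15.4% of 2417 *Tyrobp*-/- pairs. *Ppp1ca* is 1 of these genes: beside its 5′ UTR peak at 49.8 in WT and 23.8 in *Tyrobp*-/- mice, an overlapping span was listed at 2.68 in WT and 3.20 in *Tyrobp*-/- mice. None of the peaks of tau and its kinases shared bases with another peak of the same gene in its list (0 peaks in WT and 0 in *Tyrobp*-/- mice).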
